A study of Mus musculus with 6 samples.

Results

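The genes described here are 10 subunits of the Polycomb repressive complexes: Ezh1, Ezh2, Eed, Suz12, Jarid2, Mtf2 and Phf19 of Polycomb repressive complex 2 (PRC2), and Cbx7, Cbx2 and Cbx6 of Polycomb repressive complex 1 (PRC1). They were chosen by name, through the RefSeq accession of each array probe, and 15 of the 55681 probes on the array belonged to them. All 10 were among the 25057 genes and unnamed features tested, out of 37153 with a probe.

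Total RNA of 6 mouse cell cultures was hybridised to 1-colour Agilent arrays. Muscle-derived stem cells (MDSC) are the slowest adhering fraction of digested hindlimb muscle, collected after serial preplating, and they were expanded to passage 1 from 5 week old male mice. A pair of isolations came from wild-type (WT) mice and a pair from mice labelled Mstn null, Mstn encoding myostatin, a circulating factor that limits muscle size; the allele is not given in the sources used here. W4 mouse embryonic stem cells (ESC), a male line with no treatment, gave 1 array at passage 12 and 1 at passage 15, so its replicates are passages of 1 line.

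The reading of Mstn itself went against the label. Its probe gave log2 relative signals of -4.90 and -6.71 in WT MDSC, -3.06 and -2.47 in MDSC labelled Mstn null, and -7.23 and -6.85 in ESC (log2 signal relative to the array's 75th percentile), and only the arrays labelled Mstn null were well above background. Mstn was at least 4.07-fold higher there than in WT MDSC (limma unadjusted p = 0.00475, adjusted p = 0.135). Whether the probe lies inside the altered part of the gene is not given in the sources used here, so Mstn null names a label throughout, and so does each direction between the genotypes.

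Polycomb proteins keep developmental genes silent. PRC2 places methyl groups on lysine 27 of histone H3 through a catalytic subunit, either Ezh2 or its paralog Ezh1, held together by Eed and Suz12, while accessory subunits such as Jarid2, Mtf2 and Phf19 guide it to CpG-rich DNA. Canonical PRC1 reads that mark through a chromobox (Cbx) protein and places ubiquitin on histone H2A. Ezh2 is typical of dividing cells and Ezh1 of resting or differentiated ones, Cbx7 is the main chromobox protein of embryonic stem cells, and in muscle progenitors Ezh2 is known to restrain muscle genes until differentiation.

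The sequences just upstream of 6 of these genes are shown. The genes are the 3 core subunits that fell together, the Ezh2 paralog Ezh1, and a chromobox pair that went opposite ways. Each is the 100 bases before the annotated start site on the gene's own strand, 5′ to 3′, from RefSeq on build GRCm38.p6, with CpG dinucleotides in capitals. They lie at chr6:47595031-47595130 (minus strand), chr7:89980977-89981076 (minus), chr11:79993006-79993105 (plus), chr11:101226464-101226563 (minus), chr15:79932647-79932746 (minus) and chr15:79834334-79834433 (minus).
Ezh2: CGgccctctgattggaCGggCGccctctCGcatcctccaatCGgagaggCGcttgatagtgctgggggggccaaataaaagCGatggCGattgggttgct
Eed: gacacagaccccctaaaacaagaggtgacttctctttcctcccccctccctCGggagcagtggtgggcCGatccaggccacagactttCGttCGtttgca
Suz12: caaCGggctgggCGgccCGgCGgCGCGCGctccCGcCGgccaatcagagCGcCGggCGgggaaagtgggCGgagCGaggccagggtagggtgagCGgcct
Ezh1: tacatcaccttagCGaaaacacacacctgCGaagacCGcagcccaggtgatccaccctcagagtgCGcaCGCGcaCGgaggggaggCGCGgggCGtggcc
Cbx7: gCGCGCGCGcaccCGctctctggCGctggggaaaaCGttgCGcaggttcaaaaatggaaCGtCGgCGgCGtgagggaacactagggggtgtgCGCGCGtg
Cbx6: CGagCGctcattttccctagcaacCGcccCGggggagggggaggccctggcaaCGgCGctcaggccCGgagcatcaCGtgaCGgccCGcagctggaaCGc
CpG was present in each of the 6: Suz12 and Cbx7 held 15 CpG in these 100 bases, Cbx6 11, Ezh1 10, Ezh2 8 and Eed 4. Over the longer RefSeq window of 300 bases (250 before the start site and 50 after it), the median of all 32851 windows was 7 CpG. Ezh2 and Cbx6 had 31, Cbx7 33, Suz12 41, Ezh1 23 and Eed 17, and of the other members with an entry Phf19 had 38, the windows of Jarid2 24 and 23, and those of Mtf2 30 and 2. CpG number did not sort the members by direction: Cbx6, which rose in MDSC, and Ezh2, which fell, had the same number.

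The windows were also searched on both strands for the letters TTTCGCGC and TTTGGCGC, forms of the site of the E2F factors that drive genes of dividing cells. Of the 9 members searched (all but Cbx2), the only match was TTTGGCGC in Ezh2, shown here in capitals inside 30 bases that start just before the start site and run past it, at chr6:47595009-47595038 on the minus strand.
Ezh2 start site: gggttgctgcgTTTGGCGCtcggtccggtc
Of all 32851 windows, 0.514% held TTTGGCGC, 0.323% held TTTCGCGC and 0.813% held either. A match describes the letters and not a bound site, and windows with no match lack only these letters.

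Values below are log2 of the background-corrected signal minus the array's 75th percentile, called log2 relative signal, so a difference of 1 is a doubling. They are comparable between arrays for 1 probe, not between probes. The main comparison averages the means of both MDSC genotypes and sets that average against the ESC mean, and a gene was called changed at a limma adjusted p (Benjamini-Hochberg over all genes tested) under 0.05. Per the file headers the WT arrays shared slide 1 and the other 4 arrays slide 2, so slide and WT genotype cannot be told apart, while Mstn-null against ESC is a comparison within slide 2.

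Of the 10 genes, 7 were lower in MDSC than in ESC (Ezh2, Eed, Suz12, Jarid2, Mtf2, Cbx7 and Cbx2), 1 was higher (Cbx6) and 2 did not pass (Ezh1 and Phf19). The background was high, since 31.4% of all genes tested were lower and 28.3% higher. The median difference over the 10 was -2.54 on the log2 scale, against -0.03 over all genes tested. The arrays of the MDSC and ESC sides did not overlap for 9 of the 10, the exception being Phf19, and they did not overlap for 69.1% of all genes tested. With 4 arrays against 2, an exact two-sided rank-sum test of a single gene cannot go below 0.133.

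**Figure D1:**
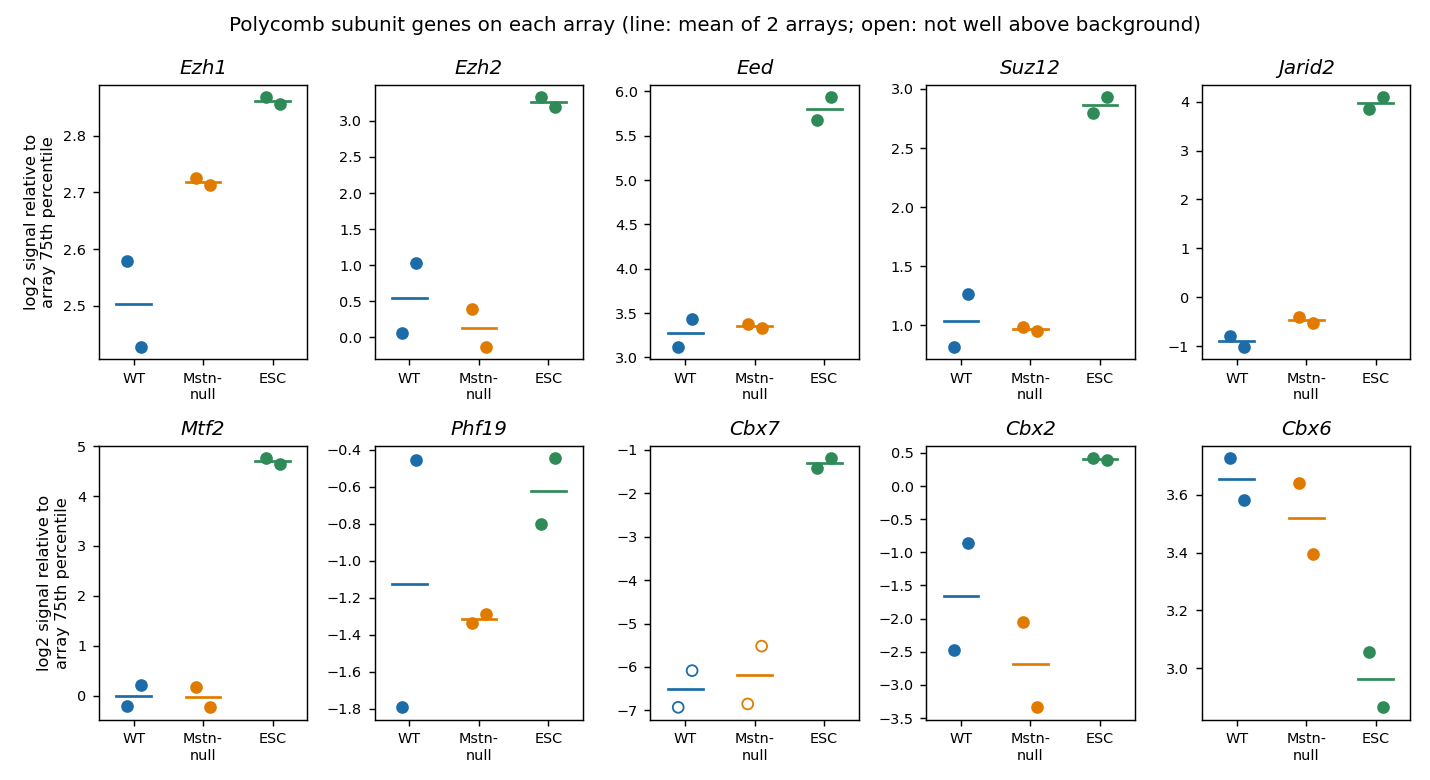
Log2 signal relative to the array's 75th percentile (vertical axis, a separate scale in each panel) for the 10 Polycomb subunit genes in WT MDSC, Mstn-null MDSC and W4 ESC. Points are arrays, lines are means of 2 arrays, and open points mark arrays of a group where the probe was not well above background. The ESC points lie above all MDSC points for 8 genes, below them for Cbx6, and among them for Phf19.

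The core of PRC2 was lower in MDSC except for Ezh1. Ezh2, the catalytic subunit, gave log2 relative signals of 0.07 and 1.03 in WT MDSC, 0.40 and -0.13 in Mstn-null MDSC, and 3.32 and 3.19 in ESC. The ESC arrays were well above all 4 MDSC arrays, among which WT isolation 2 was the highest. Ezh2 was 7.54-fold lower in MDSC (log2 difference -2.92 ± 0.33 SE, adjusted p = 0.00194, n = 4 and 2).

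Eed, which binds the methylated histone tail and switches on the enzyme, had 3.12 and 3.43 in WT MDSC, 3.37 and 3.33 in Mstn-null MDSC, and 5.68 and 5.93 in ESC. The MDSC arrays spanned 0.31, and the gap to ESC was several times that. It was 5.63-fold lower in MDSC (-2.49 ± 0.17 SE, adjusted p = 5.49e-04). Suz12, the scaffold on which the complex assembles, read 0.82 and 1.26 in WT MDSC, 0.98 and 0.95 in Mstn-null MDSC, and 2.80 and 2.93 in ESC. The groups of MDSC arrays overlapped each other and lay below both ESC arrays, and the fall was 3.63-fold (-1.86 ± 0.18 SE, adjusted p = 0.00128).

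Ezh1 behaved differently from its paralog. Its 6 values were close together: 2.58 and 2.43 in WT MDSC, 2.73 and 2.71 in Mstn-null MDSC, and 2.87 and 2.86 in ESC. The ESC arrays were still the highest, but the difference of -0.25 ± 0.13 SE did not pass (adjusted p = 0.161), and its 95% interval ran from -0.59 to 0.09. The other probes of Ezh1 gave -0.21 and -0.30 and did not pass either when each probe was fitted on its own; the latter probe was well above background on 3 of 6 arrays.

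Because both enzymes were read on the same arrays, the balance between them can be followed within each array. Relative to the ESC mean, the log2 ratio of Ezh1 to Ezh2 was 2.91 and 1.79 in WT MDSC and 2.72 and 3.23 in Mstn-null MDSC, against -0.06 and 0.06 in ESC. Every MDSC array thus lay above both ESC arrays, with WT isolation 2 the nearest to them, and the mean change was 2.66. This shows that the probes changed unequally and gives no ratio of the proteins or transcripts themselves. The core subunits that fell did so by unlike amounts: the ratio of Ezh2 to Suz12 was 1.06 lower in MDSC on the log2 scale with no overlap, while that of Ezh2 to Eed was 0.42 lower with overlapping arrays.

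**Figure D2:**
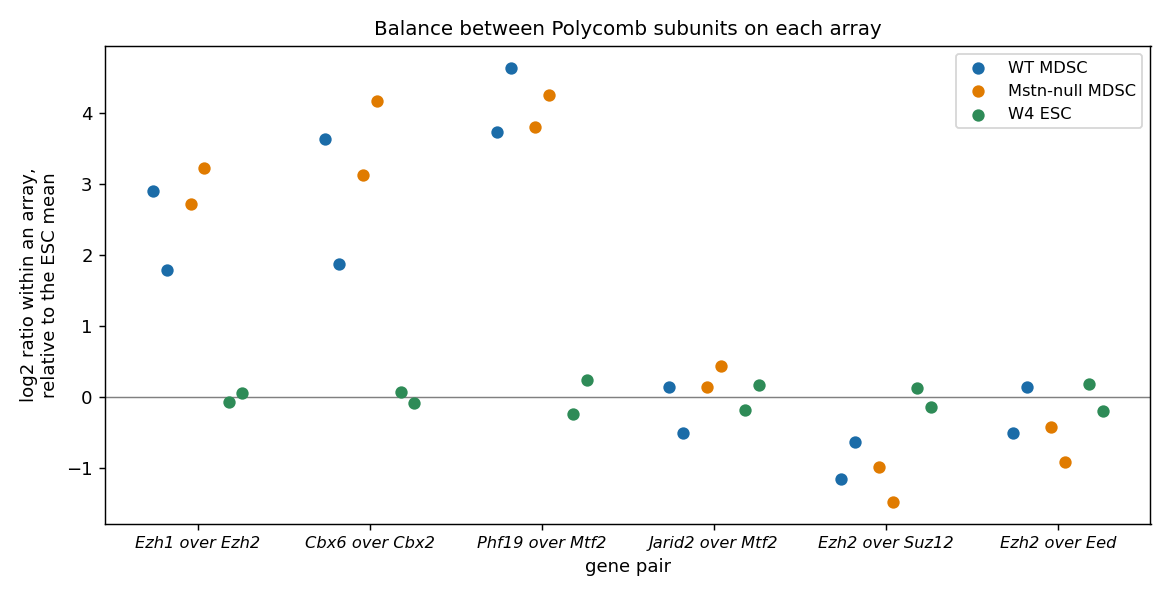
Log2 ratio of a pair of genes within each array, relative to the mean of the ESC arrays (vertical axis), for 6 pairs of Polycomb subunits (horizontal axis). Points are arrays, coloured by group; the MDSC points lie between 1.79 and 3.23 for Ezh1 over Ezh2, while those of Jarid2 over Mtf2 surround the ESC points.

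Of the genes that encode the 6 core PRC2 proteins listed (the 4 above and the histone-binding Rbbp4 and Rbbp7), 5 were lower and none higher. Over all genes tested, 31.4% were lower and 28.3% higher. The median difference of the 6 was -1.53. Rbbp4 was 1.21 lower (adjusted p = 0.00502) and Rbbp7 1.01 lower (adjusted p = 0.0137) on the log2 scale. The falls of these widely shared chromatin proteins were the smallest of the 5. The call for Rbbp7 ended without ESC passage 15 (adjusted p = 0.0731).

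Among the PRC2 members, the accessory subunits Jarid2 and Mtf2 gave the largest falls, and Phf19 did not pass. Jarid2, a cofactor that helps bring PRC2 to its targets and stimulates it, had -0.79 and -1.01 in WT MDSC, -0.40 and -0.52 in Mstn-null MDSC, and 3.86 and 4.09 in ESC. Both ESC arrays stood far above the 4 MDSC arrays, a 25.1-fold difference (-4.65 ± 0.16 SE, adjusted p = 1.16e-04). Mtf2, also called PCL2, a Polycomb-like protein that binds unmethylated CpG DNA, had -0.21 and 0.22 in WT MDSC, 0.18 and -0.23 in Mstn-null MDSC, and 4.76 and 4.63 in ESC.

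The Mtf2 arrays of the MDSC genotypes were interleaved, and the fall from ESC was 26.1-fold (-4.71 ± 0.21 SE, adjusted p = 2.12e-04). Its other, dimmer probe rose clearly above background only in ESC, on both arrays, with a difference of -3.06 (adjusted p = 0.00170 when each probe was fitted on its own). Jarid2 and Mtf2 fell by nearly the same amount: their log2 ratio differed by 0.06 between MDSC and ESC, with overlapping arrays. The Jarid2 arrays of the MDSC genotypes did not overlap, but their difference did not pass, as described further on.

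Phf19, or PCL3, is the Polycomb-like relative of Mtf2 and likewise binds CpG DNA. It read -1.79 and -0.46 in WT MDSC, -1.34 and -1.29 in Mstn-null MDSC, and -0.80 and -0.44 in ESC. WT isolation 2 lay inside the ESC range and WT isolation 1 was the lowest array, so the WT isolations spanned more than the step to ESC. The difference of -0.60 ± 0.40 SE did not pass (adjusted p = 0.245; 95% interval -1.62 to 0.43); without WT isolation 2 it was -0.93 with an adjusted p of 0.0194. The log2 ratio of Phf19 to Mtf2 was 4.11 higher in MDSC, with no overlap of arrays.

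Among all 9 accessory genes listed, 4 were lower and 1 higher (31.4% and 28.3% of all genes tested). The higher one was Phf1 (PCL1), the third Polycomb-like protein, which rose by 1.71 (adjusted p = 0.00154). The largest falls outside the 10 genes were those of Epop, a PRC2 cofactor of embryonic stem cells, at -5.31 (adjusted p = 4.26e-04), and of Ezhip, a PRC2 inhibitor, at -5.04 (adjusted p = 0.00241); Ezhip was well above background on 1 of the 4 MDSC arrays. Of the 3 Polycomb-like genes, Mtf2 was thus lower and Phf1 higher in the same arrays. Phf19, at -0.60, did not pass.

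The chromobox subunits of PRC1 split in direction. Both ESC arrays read Cbx7 well above background, at -1.41 and -1.19, and none of the MDSC arrays did, where it read -6.93 and -6.08 in WT and -6.85 and -5.52 in Mstn null. The MDSC values are therefore only bounds. Cbx7 was at least 11.9-fold lower in MDSC, taking the higher of its own signal and each array's lowest signal well above background, with an adjusted p of 0.00109 in the fit. The fitted difference depended on the background method, at -5.04 with the processed signal and -1.93 with normexp.

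Cbx2, which can compact nucleosomes, had -2.48 and -0.86 in WT MDSC, -2.05 and -3.34 in Mstn-null MDSC, and 0.42 and 0.39 in ESC. All MDSC arrays were below ESC but spread over 2.48, the widest span of any member well above background on every array. The 5.99-fold fall passed (-2.58 ± 0.58 SE, adjusted p = 0.0153). It no longer passed without ESC passage 12 (adjusted p = 0.0758) or passage 15 (adjusted p = 0.0754), where the difference was -2.57 and -2.60.

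Cbx6, a less studied chromobox paralog, ran the other way, with 3.73 and 3.58 in WT MDSC, 3.64 and 3.40 in Mstn-null MDSC, and 3.06 and 2.86 in ESC. All 4 MDSC arrays were above both ESC arrays. The rise was small, 1.54-fold (0.63 ± 0.16 SE, adjusted p = 0.0222), and its 3 probes gave 0.57, 0.63 and 0.65, each passing when probes were fitted on their own. It did not pass without WT isolation 1 (adjusted p = 0.0568), without Mstn-null isolation 1 (0.0738) or without ESC passage 15 (0.0903). Relative to the ESC mean, the log2 ratio of Cbx6 to Cbx2 was 3.65 and 1.88 in WT MDSC and 3.13 and 4.18 in Mstn-null MDSC, a mean change of 3.21.

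Of the 4 canonical chromobox genes listed, all were called: 2 higher and 2 lower (28.3% and 31.4% of all genes tested). Cbx8, a partner of repression at the Ink4/Arf locus, rose by 2.38 (adjusted p = 9.99e-04), from -3.79 and -4.32 in ESC to between -1.87 and -1.51 in MDSC. Its 4 MDSC arrays were close together and clear of ESC. Of the 4, Cbx7 and Cbx2 were thus lower in MDSC, and Cbx8 and Cbx6 higher.

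The genes of the chromobox partners also went both ways. Among 8 RING and PCGF genes, which form the ubiquitin ligase, 2 were higher and 3 lower. These counts were close to the shares over all genes tested, 28.3% higher and 31.4% lower. Bmi1 (PCGF4), the PCGF protein of canonical PRC1 in many adult stem cells, rose by 2.40 (adjusted p = 8.18e-04), and Ring1 rose by 1.08 (adjusted p = 0.00406). Pcgf6, of a variant PRC1 that lacks a canonical Polycomb chromobox subunit, fell by 3.12 (adjusted p = 3.20e-04). Rnf2 (Ring1b), the main ligase of embryonic stem cells, fell by 0.94 (adjusted p = 0.00740). The paralogs Ring1 and Rnf2 thus changed in opposite directions.

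Of 5 tested Polyhomeotic and SAM-domain genes, out of 6 listed, 3 were higher and 1 lower. Over all genes tested, 28.3% were higher and 31.4% lower. Phc1 fell by 4.49 (adjusted p = 2.23e-04), while its paralogs Phc3 and Phc2 rose by 1.73 (adjusted p = 0.00881) and 1.32 (adjusted p = 0.00857). Of 14 variant PRC1 genes tested out of 15, 3 were higher and 8 lower; 5 were lower with arrays centred on their medians. The largest falls there were L3mbtl2 at -3.52 (adjusted p = 8.90e-04) and Rybp at -2.29 (adjusted p = 5.76e-04), and the rises included Fbrs at 1.40 (adjusted p = 0.00113) and Yaf2, the paralog of Rybp, at 1.31 (adjusted p = 0.00345).

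**Figure D3:**
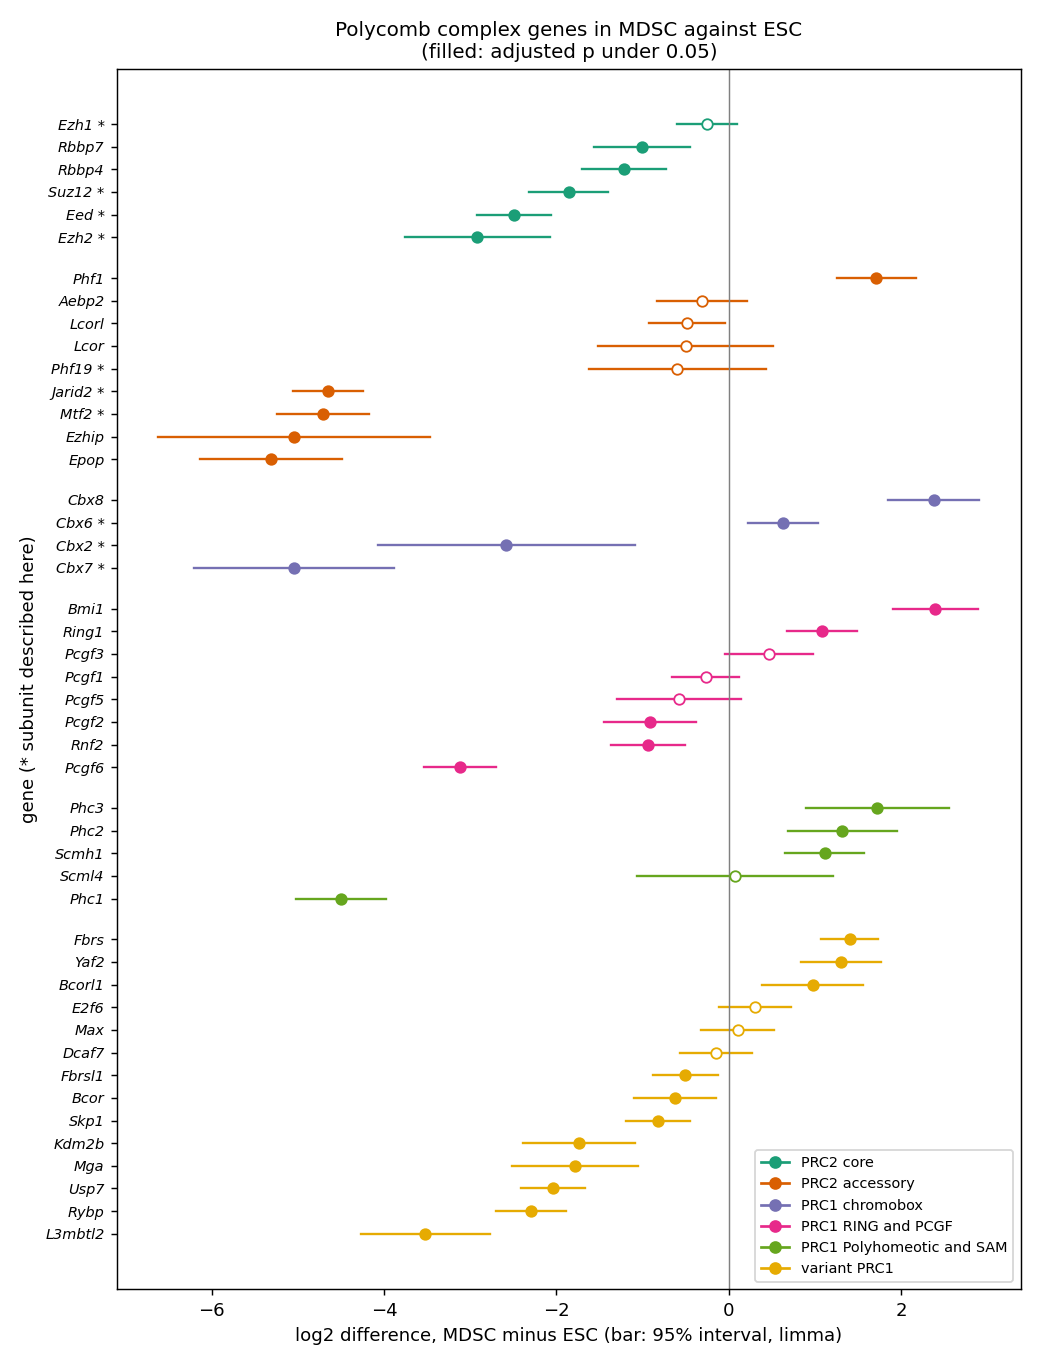
Log2 difference between MDSC and ESC (horizontal axis) with its 95% interval from limma for the tested genes of PRC2 and PRC1, grouped and coloured by role; asterisks mark the 10 subunits, and filled points have an adjusted p under 0.05. Core PRC2 points lie at or left of 0, from -0.25 for Ezh1 to -2.92 for Ezh2, while the chromobox points run from -5.04 for Cbx7, whose MDSC values were not well above background, to 2.38 for Cbx8.

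Genes that act with or against Polycomb were counted in the same way, beside 28.3% higher and 31.4% lower over all genes tested. The demethylases that remove methyl groups from lysine 27 gave 0 higher and 1 lower of 3: Kdm6a fell by 1.56 (adjusted p = 0.00155), while its paralog Kdm6b differed by 0.07 (adjusted p = 0.796). The list named PR-DUB, which holds deubiquitinases and partner proteins, gave 3 higher and 3 lower of 10, close to the shares over all genes. The largest rises were Mbd5 at 2.31 (adjusted p = 0.00266) and Usp16 at 0.85 (adjusted p = 0.00451). The largest falls were Asxl1 at -1.66 (adjusted p = 0.00118) and Ogt at -1.06 (adjusted p = 0.00386, or 0.0828 with the probes of a gene averaged). The list of Trithorax and COMPASS genes, which holds methyltransferases of lysine 4 and of lysine 36 with their partners and readers, gave 2 higher and 9 lower of 16 tested out of 18.

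The 2 that rose were Ash1l at 1.74 (adjusted p = 0.00612) and Kmt2e at 1.34 (adjusted p = 0.00620), and the largest falls in that list were Dpy30 at -2.81 (adjusted p = 9.90e-04) and Psip1 at -2.67 (adjusted p = 0.00182). The other class of chromobox proteins, HP1, which reads methylated lysine 9, gave 0 higher and 2 lower of 3, with Cbx5 at -1.85 (adjusted p = 0.00191) and Cbx3 at -0.88 (adjusted p = 0.0107). Of 6 tested lysine 9 methylation genes, out of 7, 5 were lower and none higher, led by Trim28 at -2.91 (adjusted p = 4.51e-04) and Setdb1 at -1.90 (adjusted p = 8.79e-04). The median differences of these chromatin lists were -0.92 for Trithorax and COMPASS, -0.88 for HP1 and -1.41 for lysine 9 methylation. They were -0.26 for PR-DUB and 0.07 for the lysine 27 demethylases, beside -0.03 over all genes. Of all genes tested, 28.3% were higher and 31.4% lower.

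Known Polycomb target genes were read on the same arrays. Cdkn2a, which encodes the cell cycle inhibitors p16 and Arf and is a classic target of Bmi1 and Cbx7, rose by 2.84 (adjusted p = 0.0202), from 0.85 and 3.01 in ESC to between 4.07 and 5.52 in MDSC. Its call ended without WT isolation 2 (adjusted p = 0.0514), Mstn-null isolation 2 (0.0541) or ESC passage 12 (0.0630). Its neighbour Cdkn2b (p15) rose by 2.12 (adjusted p = 8.23e-04), with 3.29 to 3.75 in MDSC against 1.27 and 1.53 in ESC. Both were higher in every MDSC array than in either ESC array.

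Of 28 tested developmental regulators listed as Polycomb targets, out of 31, 12 were higher in MDSC, 4 were lower and 12 did not pass; 8 were lower without ESC passage 12, and 0 when genes had to be well above background on every array. Over all genes tested, 28.3% were higher and 31.4% lower. Hoxc10, a homeobox gene of the posterior body and hindlimb, was at least 57.9-fold higher. Its signal was well above background in MDSC only, on 4 of 4 arrays. Tbx15, a limb and muscle T-box factor, rose by 4.44 (adjusted p = 2.82e-04). In the other direction Wt1, a mesothelial and kidney regulator, fell by 6.44 (adjusted p = 8.50e-04) and was well above background on 1 MDSC array, and Foxa2, an endoderm factor, was at least 6.45-fold lower.

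The step from ESC was of the same direction in both MDSC genotypes for each of the 10 genes. In WT MDSC against ESC, 6 of the 10 were lower and 1 higher (25.9% and 27.1% of all genes tested), and the median difference was -2.30 against 0.03 for all genes. In Mstn-null MDSC against ESC, 7 were lower and 0 higher (30.8% and 23.3% of all genes), with a median of -2.77 against -0.12. With arrays centred on their medians, 53.3% in place of 43.1% of the genes called in the latter comparison were higher, 1 of the 10 was then higher, and Ezh1 changed sign from -0.14 to 0.08. These comparisons share the ESC arrays.

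The genes whose call was not the same in each were Cbx2 and Cbx6, both near the threshold. Cbx2 differed from ESC by -2.07 in WT MDSC (adjusted p = 0.0508) and by -3.10 in Mstn-null MDSC (adjusted p = 0.0153). The call in WT MDSC was gained under 6 of 16 alternatives, with an adjusted p of 0.0214 under normexp, and that in Mstn-null MDSC was lost without Mstn-null isolation 2 (0.0689), ESC passage 12 (0.0652) or ESC passage 15 (0.0645). Cbx6 differed by 0.69 in WT MDSC (adjusted p = 0.0284; 0.0613 with the isolation number as a block) and by 0.56 in Mstn-null MDSC (adjusted p = 0.0516), and its call in WT MDSC was lost under 7 of 16 alternatives. Fitted on the 4 arrays of slide 2 alone, Mstn-null MDSC against ESC had 8 of the 10 lower, with Phf19 added at -0.69 (adjusted p = 0.0485); 30.6% of the 24367 genes tested in that fit were lower.

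Between the genotypes themselves, 0 of the 10 genes passed in Mstn-null against WT MDSC, where limma called 0% of all genes higher and 0% lower. At an unadjusted p under 0.05 there were 0 of the 10 and 3671 of 25057, and quantile normalization called 25 genes. The 10 had a median difference of -0.05 against -0.12 for all genes, a median that moved up by 0.16 with median centring. In bulk RNA, fewer cells of a type and less RNA per cell cannot be told apart here.

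Jarid2 came nearest, with Mstn-null arrays at -0.40 and -0.52 above WT arrays at -0.79 and -1.01. The difference was 0.44 (95% interval -0.02 to 0.91, unadjusted p = 0.0588, limma adjusted p = 0.365). Ezh1 was also higher in both Mstn-null arrays than in both WT arrays, by 0.21 (interval -0.18 to 0.61). For the other 8 genes the genotypes' arrays overlapped. How many of all genes did not overlap in this comparison was not counted, so no excess is claimed. The intervals left room for sizeable differences where isolations varied: -2.75 to 0.70 for Cbx2, -1.38 to 0.56 for Ezh2 and -1.37 to 1.00 for Phf19, against -0.42 to 0.57 for Eed and -0.61 to 0.33 for Cbx6. In order of level, ESC stood first for the 9 genes other than Cbx6 and last for Cbx6, and no difference between the WT and Mstn-null means passed the test.

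The composition of the cultures was read from marker lists. All 10 pluripotent cell markers were lower in MDSC. For this and the counts that follow, 31.4% of all genes tested were lower and 28.3% higher. Fibroblast markers averaged 4.88 to 6.32 in the MDSC arrays and 2.09 and -0.39 in ESC passages 12 and 15, and 9 of the 10 had signal clear of background on the ESC arrays; the labels call the ESC colonies feeder free, while the protocol describes embryonic fibroblast feeders and a plating step to remove them. Macrophage markers (9 tested, 7 higher in MDSC) averaged -0.11 and -2.22 in WT and 1.60 and 3.79 in Mstn-null MDSC, against -4.31 and -3.56 in ESC. Myogenic markers averaged 1.33 in WT isolation 1 and -1.18 in WT isolation 2, -1.64 and -2.14 in Mstn-null MDSC, and -3.12 and -3.37 in ESC; 4 of 8 tested were higher in MDSC. The myogenic mean includes Pax7 and Myf5, which no group read well above background on each of its arrays and which were not tested. Of 5 tested endothelial markers, out of 8, 1 was higher in MDSC (Cdh5) and 2 were lower (Egfl7 and Pecam1). The part of these cell types in the Polycomb values was not tested.

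Genes of proliferating cells had their highest MDSC mean in the same isolation as several of the subunits. The mean of 18 genes of proliferation was 1.51 in WT isolation 1, 2.78 in WT isolation 2, 1.98 and 1.68 in Mstn-null MDSC, and 4.19 and 4.16 in ESC, with 14 of the 18 lower in MDSC (9 without ESC passage 15). Over all genes tested, 31.4% were lower and 28.3% higher. WT isolation 2 was the highest MDSC array for the proliferation mean and also for Ezh2, Eed, Suz12, Mtf2, Phf19 and Cbx2. WT isolation 2 was not the highest for Jarid2 or Ezh1, where it was the lowest of the 4. Nor was it for Cbx6 or for Cbx7, whose MDSC values are bounds. Mstn-null isolation 2 was above WT isolation 1 for the mean, Eed, Suz12 and Phf19, but below it for Ezh2, Mtf2 and Cbx2. Without WT isolation 2, Ezh2 remained lower in MDSC, and its differences over all alternatives ran from -3.16 to -2.68. The part of proliferation in these values was not tested.

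**Figure D4:**
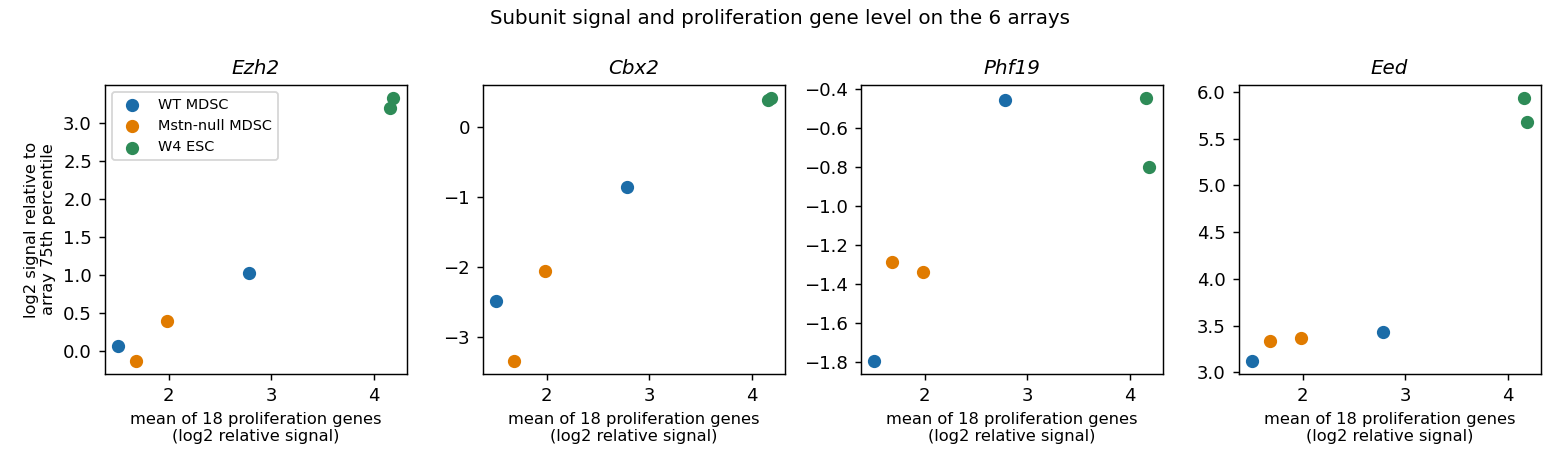
Log2 relative signal of Ezh2, Cbx2, Phf19 and Eed (vertical axes, a separate scale in each panel) against the mean log2 relative signal of 18 proliferation genes (horizontal axis) on the 6 arrays, coloured by group. The MDSC array farthest to the right, at 2.78, is WT isolation 2, which is also the highest MDSC point in each of the 4 panels; Eed in MDSC stays between 3.12 and 3.43.

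Genes with the most similar profiles were found by the Euclidean distance between profiles centred over the 6 arrays, among 12413 named genes that every array read well above background. Smaller is more alike, and the distance is given for the nearest gene. Ezh2 was nearest to Zfp59 (0.257), then to Oip5 and Kif18a; Cbx2 to Cdc20 (0.466), Hmmr and Amhr2; and Phf19 to Abcb4 (0.269) and Cdc25b. Eed was nearest to Pms1 (0.200), Stx3 and Rnf138, and Suz12 to Trmt11 (0.108), Pfdn6 and Noc4l.

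Mtf2 was nearest to Rif1 (0.406), Adgrb1 and Phc1. Jarid2 was nearest to Rasip1 (0.557), Susd4 and Prom1. No neighbours are given for Cbx7, whose MDSC values are bounds. The small profiles of Ezh1 and Cbx6 had close ones, Fam133b (0.140), Atxn2 and H3f3b for Ezh1 and Oxld1 (0.158), Kiz and Pdik1l for Cbx6. These distances describe 6 arrays of 3 groups and most of each follows the step between MDSC and ESC.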

How the data were processed

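Each deposited file holds the spot intensity values of 1 array, which the authors made with Agilent Feature Extraction (10.7.1.1 per the file headers, 9.1 per the submitters' processing notes) from Cy3-labelled total RNA; the processed intensity is already background corrected. The array design is on mm9, per the file headers. Between 53.3% and 64.6% of spots per array were well above background, and the number of arrays limits the precision.

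The log2 processed signal was scaled by subtracting, within each array, the 75th percentile of the spots that were not controls; spots with an outlier flag were left out. Probes were named by accession through RefSeq (GRCm38.p6), which matched 26413 of 55681. A gene took its probe with the highest mean and was tested where both arrays of some group read it well above background. The 3 group means were fitted with limma 3.58.1 in R 4.3.3 (3 residual and 2.02 prior degrees of freedom), checked on simulated data.

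The genes, lists and tests were chosen with earlier results of these data known. Named genes are the 10 subunits, up to 2 called genes each way with the largest change per chromatin or target list, their paralogs, Mstn, and the 3 nearest profiles per subunit other than Cbx7; some items are not reported here. MDSC samples are separate isolations; the ESC passages may differ less than lines would. Alternatives covered scaling, background, filters, probe choice, the fit, the replicate block and leaving out each array.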

Additional observations from a re-analysis of the deposited data

How the results depend on the processing

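For the 10 subunits in MDSC against ESC, 143 values under alternatives kept their direction and call, 5 lost the call (Cbx2 and Cbx6) and 1 gained it (Phf19). The count of higher subunits ran from 0 to 1 over leave-one-out fits in MDSC and in WT MDSC against ESC, and in WT MDSC it was 0 with the replicate block and with only the groups compared. In Mstn-null MDSC against ESC it was 1 with median centring, normexp, the all-array filter, and trended and robust limma; leave-one-out fits called 7779 to 12954 genes in all, the fewest without Mstn-null isolation 2, and Ezh1 was 0.080 with median centring.

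In Mstn-null against WT MDSC, quantile normalization called 25 genes. Same-numbered isolations deviated oppositely (r = -0.40). With a pair of arrays per group, both isolation numbers give this same value by construction. The value therefore cannot show whether same-numbered isolations were handled together, and their pairing was not tested. The crossed pairing, chosen after seeing the data, called 177 genes. The replicate block changed 1 call among the subunits, Cbx6 in WT MDSC against ESC. Uncalled differences changed sign: with median centring Suz12 was 0.089, Mtf2 0.13 and Cbx6 0.025, and Mtf2 was 0.072 with probes averaged. Over leave-one-out fits Ezh2 ran from -0.89 to 0.069, Eed from -0.079 to 0.23, Suz12 from -0.29 to 0.15, Mtf2 from -0.24 to 0.18, Phf19 from -0.86 to 0.48 and Cbx7 from -0.34 to 0.99. In WT MDSC against ESC Phf19 ran from -1.17 to 0.16, and in MDSC against ESC Kdm6b from -0.076 to 0.21. The cause of these changes was not tested. Signal over background limits Cbx7 in MDSC.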
